A study of Mus musculus with 8 samples.

Results

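The insulin-like growth factor (IGF) axis was described here by 10 genes, chosen by symbol with earlier results of these data known. They were the ligands Igf1 and Igf2, the receptors Igf1r and Igf2r, and the binding proteins Igfbp2, Igfbp3, Igfbp4, Igfbp5, Igfbp6 and Igfbp7. All 10 were among the 24963 genes of the expression table, and 9 were among the 14323 genes tested. Whole uteri were collected at gestation day (GD) 3.5 from 4 Nr2f2 f/f and 4 Nr2f2 d/d mice of the C57B6/J strain, mated at 8 weeks of age by the sample labels, and each uterus gave 1 RNA-seq library. The males used for mating were vasectomized and the uteri held no embryos. The comparison asks which uterine transcripts differ once Nr2f2 is removed. All 8 mice carried the floxed Nr2f2 allele on both chromosomes. The Nr2f2 d/d mice also carried Cre knocked into 1 allele of the progesterone receptor gene Pgr, which deletes Nr2f2 in cells that express Pgr, and the Nr2f2 f/f controls carried no Cre. The deletion and the Cre allele at Pgr therefore cannot be told apart in this comparison. Nr2f2 encodes the nuclear receptor COUP-TFII, and its level checked the labels: 21.8 to 25.7 FPKM in Nr2f2 f/f and 6.90 to 9.74 FPKM in Nr2f2 d/d.

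IGF1 and IGF2 are secreted peptides that signal for growth and survival through the tyrosine kinase receptor IGF1R. IGF2R, which is also the cation-independent mannose-6-phosphate receptor, takes up IGF2 for degradation in lysosomes, and the IGF binding proteins hold the ligands outside cells and are cut by proteases that release them. In the rodent uterus Igf1 is known as an estrogen-induced product, largely of the stroma, that acts on the epithelium, whereas Igfbp genes are transcribed in stroma, epithelium and blood vessels.

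Values are FPKM, the fragments on a gene divided by its length and by the total of its library, so that levels of different genes can be set beside each other. The depth recovered from the FPKM was 61300000 to 77600000 fragments in Nr2f2 f/f and 61550000 to 92250000 in Nr2f2 d/d, and 1 fragment was worth less in the deeper libraries. Some libraries stood apart. Nr2f2 f/f replicates 1 and 2 had 244 and 1444 FPKM of the uterine gland protease gene Prss29, against 0.041 to 41.6 FPKM in the other 6 libraries. Nr2f2 d/d replicate 3 had 1141 FPKM of the collagen gene Col1a1, against 119 to 533 FPKM in the other 7. In RNA from whole uterus, fewer cells of a type and less RNA per cell cannot be told apart.

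Of the 9 members tested, 0 had an adjusted p under 0.05 from limma, a linear model fitted to log2(FPKM + 0.5) of all 14323 genes, against 2.62% of all genes (1.09% higher and 1.53% lower in Nr2f2 d/d). With no adjustment, 6 of 9 had a p under 0.05 and a lower mean in Nr2f2 d/d, and 0 had a p under 0.05 and a higher mean, against 12.5% and 8.66% of all genes (21.2% in both directions). These 6 were Igf1, Igf2, Igf1r, Igf2r, Igfbp3 and Igfbp7. With 1 library left out the count of lower members was 1 to 5: 1 (Igf2) when Nr2f2 d/d replicate 2 was left out, and 3 when Nr2f2 f/f replicate 1 or Nr2f2 d/d replicate 3 was. It was 2 with both Nr2f2 f/f replicates 1 and 2 left out. The wider criterion that the original analysis applied to counts was an unadjusted p under 0.05 with a fold change of at least 1.4. It was met by 3 members, Igf2, Igf1r and Igfbp3, all lower in Nr2f2 d/d, and by 0 higher ones, against 4.1% and 4.7% of all genes (8.8% in both directions). The median log2 fold change of the 9 members was -0.31, beside -0.02 over all genes tested. None of the differences between the genotypes described for members can be called at the adjusted threshold, and "higher" and "lower" are used of means and values only. Exact permutation tests of 4 against 4 libraries cannot give a p below 0.0286.

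**Figure D1:**
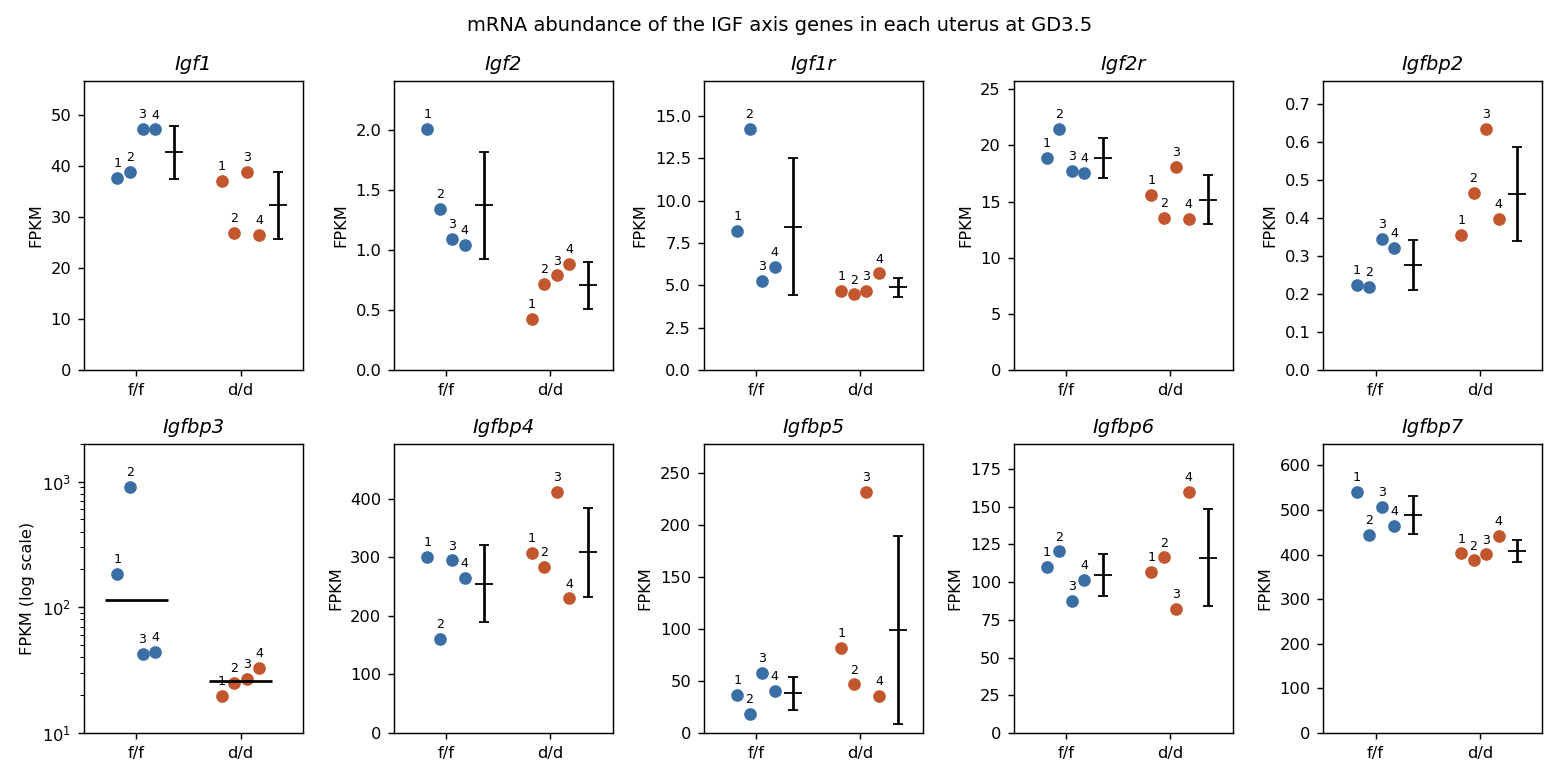
Level of each of the 10 IGF axis genes in FPKM in 4 Nr2f2 f/f and 4 Nr2f2 d/d uteri, 1 point per uterus. The bar is the group mean with its SD on a linear axis, except for Igfbp3, where it is the group median on a log axis. The Nr2f2 d/d points lie below all Nr2f2 f/f points for Igf2, Igfbp3 and Igfbp7 and above them for Igfbp2, and the Nr2f2 f/f points of Igfbp3 spread from 42.8 to 912 FPKM.

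In control uterus the levels of the 10 genes ran from Igfbp7 at 489 ± 42.9 FPKM (SD, n = 4) down to Igfbp2 at 0.277 ± 0.0657 FPKM. The order of the Nr2f2 f/f means was Igfbp7, Igfbp3, Igfbp4, Igfbp6, Igf1, Igfbp5, Igf2r, Igf1r, Igf2 and Igfbp2. Neighbours in this order whose Nr2f2 f/f values overlapped were Igfbp7 and Igfbp3, Igfbp3 and Igfbp4, Igf1 and Igfbp5, and Igfbp5 and Igf2r, and for the other 5 neighbouring pairs the ranges were apart. The place of Igfbp3 rested on 2 libraries, and in Nr2f2 d/d the values of Igfbp4 and Igfbp7 overlapped. Transcripts of the binding proteins together exceeded those of the 2 ligands by 18.95 to 41.2 times in Nr2f2 f/f and 24.5 to 32.8 times in Nr2f2 d/d, which overlapped.

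Among the ligands, Igf1 was the abundant one and was lower on average without Nr2f2. Igf1 lies on chromosome 10 at 87858265 to 87937042, plus strand, in mm10. It was at 37.7, 38.9, 47.3 and 47.2 FPKM in Nr2f2 f/f replicates 1 to 4 and at 37.1, 26.9, 38.9 and 26.6 FPKM in Nr2f2 d/d replicates 1 to 4. In all, 3 of the 4 Nr2f2 d/d values lay below all controls, and replicate 3 of Nr2f2 d/d lay among them, so the groups overlapped. The means were 42.8 ± 5.20 and 32.4 ± 6.54 FPKM (SD, n = 4 each), with a log2 fold change of -0.41 (SE 0.152, 95% confidence interval -0.76 to -0.06, limma p = 0.0268, adjusted p = 0.183, exact permutation p = 0.0857). Leaving out 1 library at a time moved the log2 fold change between -0.51 and -0.32, and the 1.4-fold criterion was met without Nr2f2 d/d replicate 3 (-0.51). It was met in 4 of 20 alternative settings in all.

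Igf2, an imprinted fetal growth factor gene, was at a low level and gave the smallest p of the members. It lies on chromosome 7 at 142650766 to 142666816, minus strand. It was at 2.01, 1.34, 1.09 and 1.05 FPKM in Nr2f2 f/f and at 0.429, 0.718, 0.789 and 0.887 FPKM in Nr2f2 d/d. The groups did not overlap, which held for 3 of the 9 members tested on the lower side and 0 on the higher side, against 9.91% and 5.49% of all genes (15.4% in all). The mean was 1.37 ± 0.442 FPKM in Nr2f2 f/f and 0.706 ± 0.197 FPKM in Nr2f2 d/d, a log2 fold change of -0.62 (SE 0.192, 95% confidence interval -1.06 to -0.18, limma p = 0.0115, adjusted p = 0.123, exact permutation p = 0.0286, the smallest possible). The log2 fold change was -0.47 without Nr2f2 f/f replicate 1, the highest library, and then missed the 1.4-fold criterion. The criterion was missed in 4 of 20 alternative settings, among them 1 in place of 0.5 added to the FPKM (-0.47) and both Nr2f2 f/f replicates 1 and 2 left out (-0.40). These levels rest on an estimated 151 to 723 fragments a library, and 64.5% of the exon bases of Igf2 are shared with Gm49394 on the same strand and Igf2os on the opposite one, so the value may include fragments of either. Igf2os itself was listed at 0 to 0.031 FPKM. Igf1 exceeded Igf2 by 18.8 to 45.2 times in Nr2f2 f/f and by 29.96 to 86.4 times in Nr2f2 d/d, ranges that overlapped. The sum of both ligands, nearly all of it Igf1, was 39.737 to 48.387 FPKM in Nr2f2 f/f and 27.459 to 39.715 FPKM in Nr2f2 d/d, apart by a narrow margin.

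The genes most like Igf2 across the 8 libraries were named by the smallest root mean square difference in log2(FPKM + 0.5), centred on each gene's mean, among 9351 genes averaging at least 5 FPKM. They were Unc45b (0.118), Ecscr (0.129), Tek (0.130), Gda (0.137) and Nos3 (0.139), where the spread of Igf2 itself on this scale was 0.399. Tek, an angiopoietin receptor, Nos3, the endothelial nitric oxide synthase, and Ecscr, an endothelial surface protein, are known from blood vessels. Tek was at 18.2, 15.2, 11.1 and 11.3 FPKM in Nr2f2 f/f and at 7.13, 7.34, 7.95 and 9.74 FPKM in Nr2f2 d/d. Like Igf2, Tek was highest in Nr2f2 f/f replicate 1 and lowest in Nr2f2 d/d replicate 1. Because the 5 genes were picked for likeness to Igf2 in these same libraries, group difference included, this match is no separate evidence. Adding 0.5 also shrinks the differences of the low Igf2 more than those of these genes. All 8 endothelial markers examined were lower in Nr2f2 d/d by the 1.4-fold criterion, 5 of them with an adjusted p under 0.05 from limma, with a summed level of 273 to 371 FPKM in Nr2f2 f/f and 162 to 207 FPKM in Nr2f2 d/d. With 1 library left out, 7 or 8 of the markers met the criterion, and 0 to 5 had an adjusted p under 0.05, 0 of them without Nr2f2 f/f replicate 1 or Nr2f2 d/d replicate 1 or 2. The count was 1 when Nr2f2 f/f replicate 4 was left out, and 3 when Nr2f2 f/f replicate 2 or Nr2f2 d/d replicate 4 was. With both Nr2f2 f/f replicates 1 and 2 left out, 5 of the 8 met the criterion and 0 had an adjusted p under 0.05. None of these 8 was at 0 in any library. Their median log2 fold change was -0.73, and their part in the value of Igf2 was not tested.

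The receptor genes were both lower on average. Igf1r, the signaling receptor, lies on chromosome 7 at 67952827 to 68233668, plus strand. It was at 8.23, 14.2, 5.25 and 6.11 FPKM in Nr2f2 f/f and at 4.68, 4.46, 4.69 and 5.70 FPKM in Nr2f2 d/d. The Nr2f2 d/d values lay close together, whereas Nr2f2 f/f replicate 2, followed by replicate 1, stood above the other controls, and the groups overlapped. The means were 8.45 ± 4.03 and 4.88 ± 0.557 FPKM, a log2 fold change of -0.64 (SE 0.269, 95% confidence interval -1.26 to -0.02, limma p = 0.0439, adjusted p = 0.223, exact permutation p = 0.0571). It met the 1.4-fold criterion, but the log2 fold change was -0.37 with Nr2f2 f/f replicate 2 left out and -0.20 with both replicates 1 and 2 of Nr2f2 f/f left out, and the criterion was missed in 12 of 20 alternative settings.

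Igf2r was the more abundant receptor gene and varied less than Igf1r among the controls. It lies on chromosome 17 at 12682406 to 12769664, minus strand. It was at 18.9, 21.4, 17.7 and 17.6 FPKM in Nr2f2 f/f and at 15.6, 13.5, 18.1 and 13.5 FPKM in Nr2f2 d/d. In all, 3 of the 4 Nr2f2 d/d values lay below all controls, and Nr2f2 d/d replicate 3 lay within them, the same library that lay among the controls for Igf1. The means were 18.9 ± 1.78 and 15.2 ± 2.19 FPKM, a log2 fold change of -0.31 (SE 0.112, 95% confidence interval -0.57 to -0.06, limma p = 0.0226, adjusted p = 0.170, exact permutation p = 0.0857). It stayed between -0.40 and -0.25 when any 1 library was left out. The Igf2r level exceeded that of Igf1r by 1.51 to 3.38 times in Nr2f2 f/f and by 2.36 to 3.86 times in Nr2f2 d/d, which overlapped.

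The promoters of the ligand and receptor genes are of interest because the NR2F2 protein binds DNA at the motif AGGTCA. A variant of this motif that NR2F2 also binds reads GGGTCA. Sequences from RefSeq (GRCm38.p6), 250 bases before to 50 bases after an annotated start site, were searched for both motifs on both strands. Of the 14 promoters annotated for the 10 members, 5 held at least 1 match (35.7%), beside 27.5% of all 32851 promoters and 24.6% of the 13924 promoters of genes tested. The promoters of Igf1 (chr10:87860861-87861160, plus strand), Igf1r (chr7:67952007-67952306, plus strand) and Igf2r (chr17:12769657-12769956, minus strand) each held a match, and that of Igfbp3 (chr11:7213874-7214173, minus strand), the member with the lowest fold change, held none in this window. These 4 are shown 5′ to 3′ on the strand of the gene, with either motif or its reverse complement in capitals.
Igf1: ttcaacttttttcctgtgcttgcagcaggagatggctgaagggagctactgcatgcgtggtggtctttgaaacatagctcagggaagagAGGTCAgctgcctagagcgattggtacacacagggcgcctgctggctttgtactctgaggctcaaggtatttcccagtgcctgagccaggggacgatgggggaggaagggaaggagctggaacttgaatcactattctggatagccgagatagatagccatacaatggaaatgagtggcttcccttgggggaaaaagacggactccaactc
Igf1r: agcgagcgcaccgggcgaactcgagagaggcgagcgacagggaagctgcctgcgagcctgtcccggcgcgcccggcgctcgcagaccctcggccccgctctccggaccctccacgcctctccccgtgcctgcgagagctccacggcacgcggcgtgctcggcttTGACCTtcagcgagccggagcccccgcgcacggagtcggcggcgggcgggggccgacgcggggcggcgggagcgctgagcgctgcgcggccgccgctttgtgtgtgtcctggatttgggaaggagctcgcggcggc
Igf2r: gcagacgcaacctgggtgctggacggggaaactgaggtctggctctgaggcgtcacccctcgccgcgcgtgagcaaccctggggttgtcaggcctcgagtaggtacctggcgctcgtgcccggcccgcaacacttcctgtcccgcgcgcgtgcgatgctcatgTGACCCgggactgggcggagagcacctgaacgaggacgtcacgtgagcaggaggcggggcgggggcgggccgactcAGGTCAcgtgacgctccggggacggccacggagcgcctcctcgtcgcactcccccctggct
Igfbp3: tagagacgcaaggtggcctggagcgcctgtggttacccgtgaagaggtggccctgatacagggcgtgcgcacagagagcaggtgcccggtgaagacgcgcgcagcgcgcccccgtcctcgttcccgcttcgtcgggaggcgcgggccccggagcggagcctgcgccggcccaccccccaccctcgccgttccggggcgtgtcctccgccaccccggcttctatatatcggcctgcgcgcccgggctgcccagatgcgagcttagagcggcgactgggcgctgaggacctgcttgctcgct
The match in Igf1 began at -161 from the start site and that in Igf1r, on the opposite strand, at -86. Igf2r held a match on the opposite strand at -87 and another on the gene's own strand at -11. The other matches were in Igfbp6 at -77 and in 1 of the 4 Igf2 promoters at -234. A match is a run of letters only, and binding of NR2F2 at these windows was not analysed here.

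The binding proteins differed among themselves in level, in direction and in how far single libraries decided their values. Igfbp7, which binds IGFs weakly and is also known as a product of blood vessel walls, had the highest mean of the members in both groups, although Igfbp3 exceeded it in Nr2f2 f/f replicate 2 and Igfbp4 in Nr2f2 d/d replicate 3. It lies on chromosome 5 at 77349240 to 77408041, minus strand. It was at 540.5, 445, 507 and 465 FPKM in Nr2f2 f/f and at 402, 387, 400.2 and 443 FPKM in Nr2f2 d/d. The groups did not overlap, by the small step from 443 to 445 FPKM. The means were 489 ± 42.9 and 408 ± 24.1 FPKM, a log2 fold change of -0.26 (SE 0.0948, 95% confidence interval -0.48 to -0.04, limma p = 0.0251, adjusted p = 0.178, exact permutation p = 0.0286). Leaving out 1 library at a time gave -0.30 to -0.21. The 8 endothelial markers were lower too, and the 5 pericyte markers, 1 of them (Rgs5) past the adjusted threshold, had a summed level of 159 to 192 FPKM in Nr2f2 f/f and 104 to 126 FPKM in Nr2f2 d/d. Most of that sum was Rgs5, whose adjusted call was lost without Nr2f2 f/f replicate 1 or Nr2f2 d/d replicate 1 or 2, and the values of the other 4 overlapped between the groups. The part of either list in the value of Igfbp7 was not tested. Of the exon bases of Igfbp7, 7.03% are shared with Polr2b on the opposite strand.

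Igfbp3, whose protein is the main IGF carrier of serum, had the lowest fold change and the widest spread of all members. It lies on chromosome 11 at 7206086 to 7213923, minus strand. It was at 183, 912, 42.8 and 44.4 FPKM in Nr2f2 f/f replicates 1 to 4 and at 19.7, 25.1, 26.9 and 33.0 FPKM in Nr2f2 d/d. All 4 Nr2f2 d/d uteri lay below all controls, but Nr2f2 f/f replicates 3 and 4 were much closer to them than to replicate 2, and the highest control exceeded the lowest by 21.3 times. The group medians were 114 and 26.0 FPKM. The log2 fold change was -2.36 (SE 0.901, 95% confidence interval -4.42 to -0.29, limma p = 0.0303, adjusted p = 0.193, exact permutation p = 0.0286). Leaving out Nr2f2 f/f replicate 2 gave -1.43. Leaving out both Nr2f2 f/f replicates 1 and 2 gave -0.75, with the 1.4-fold criterion still met. Among fits with 1 library left out, those lacking Nr2f2 f/f replicate 1 or any of Nr2f2 d/d replicates 1, 2 and 3 missed the criterion.

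The 2 controls with the most Igfbp3 were those with the gland proteases, with replicate 2 above replicate 1 for each. Spink1, a protease inhibitor of uterine glands, was at 288, 1332, 165 and 115 FPKM in Nr2f2 f/f and at 0.729, 5.15, 2.56 and 24.4 FPKM in Nr2f2 d/d. In Nr2f2 d/d the highest library for Igfbp3, Spink1 and Prss29 was replicate 4. The summed level of the 5 gland markers was 138 to 3290 FPKM in Nr2f2 f/f and 27.4 to 82.6 FPKM in Nr2f2 d/d. Of these 5, Cxcl15 was instead lowest in Nr2f2 f/f replicate 2, at 1.18 FPKM. Its mean was higher in Nr2f2 d/d, at 16.4 FPKM against 9.74 FPKM in Nr2f2 f/f, with overlap. Foxa2, a gland transcription factor, was at 3.24 to 7.74 FPKM in Nr2f2 f/f and 4.02 to 6.39 FPKM in Nr2f2 d/d. What part these libraries' gland transcripts have in the difference in Igfbp3 was not tested.

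**Figure D2:**
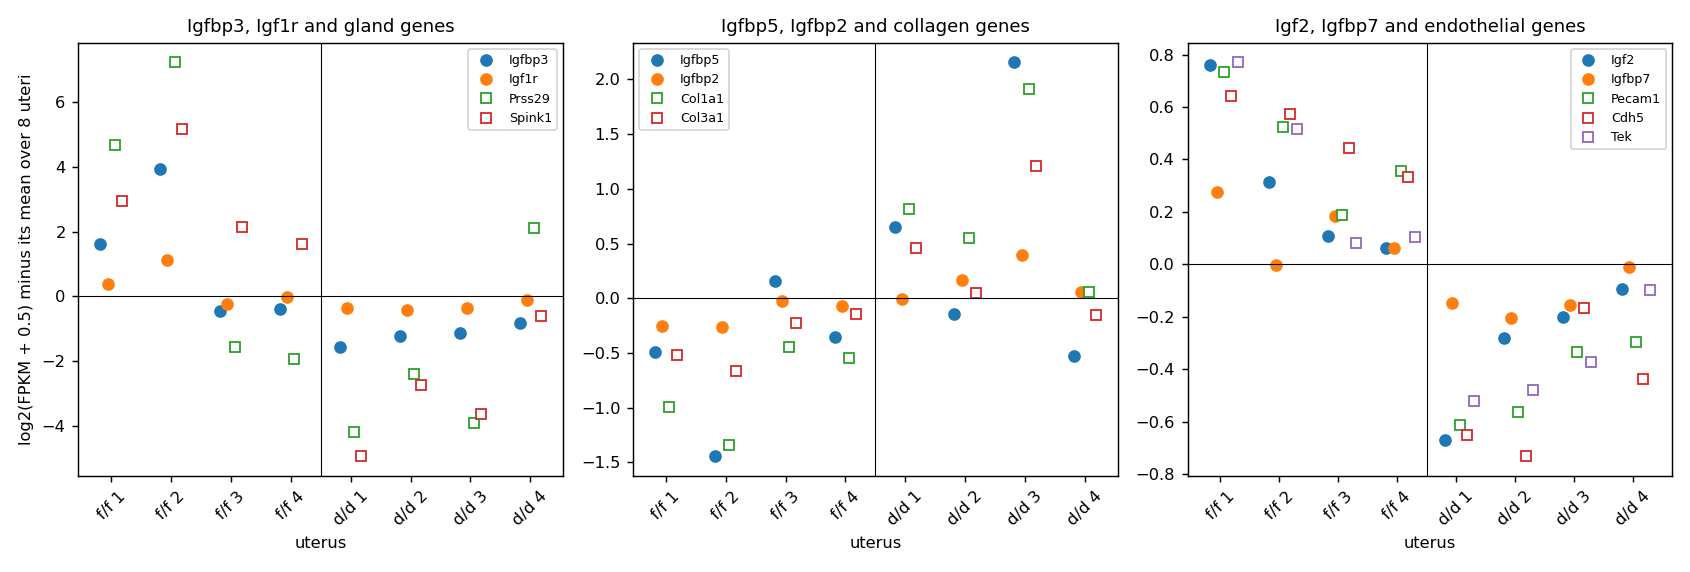
Members (filled circles) and marker genes (open squares) in each of the 8 uteri, as log2(FPKM + 0.5) minus the mean of the gene over all 8; Nr2f2 f/f is left and Nr2f2 d/d right of the line, each panel has its own scale, and the genes of each panel were chosen after their values were seen. Igfbp3 and Prss29 are highest in Nr2f2 f/f replicate 2, Igfbp5, Igfbp2 and both collagen genes in Nr2f2 d/d replicate 3, and Igf2 and Tek in Nr2f2 f/f replicate 1.

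Igfbp1, the neighbour of Igfbp3 at a distance of 3.54 kb tail to tail and no member of the set, is known as a binding protein of human decidua. It was at 1.52 FPKM in Nr2f2 f/f replicate 2, an estimated 142 fragments, and at 0 to 0.028 FPKM, at most 4 fragments, in the other 7 libraries. The library with the most Igfbp3 was thus the only one of the 8 with more than a few fragments of Igfbp1.

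Igfbp5, a matrix-associated binding protein, was the only member tested with a mean more than 1.4-fold higher in Nr2f2 d/d, but the difference did not pass either criterion. It lies on chromosome 1 at 72857932 to 72874884, minus strand. It was at 36.5, 18.6, 57.4 and 40.2 FPKM in Nr2f2 f/f and at 81.3, 46.6, 232 and 35.7 FPKM in Nr2f2 d/d. Nr2f2 d/d replicate 3 exceeded all other libraries, while Nr2f2 d/d replicates 2 and 4 lay within the controls. The log2 fold change was 1.07 (SE 0.585, 95% confidence interval -0.27 to 2.41, limma adjusted p = 0.331, exact permutation p = 0.2). It was 0.53 without Nr2f2 d/d replicate 3, and 1.42 without Nr2f2 d/d replicate 4, where it met the 1.4-fold criterion. Col3a1, a collagen gene of stroma, was at 391, 351, 479 and 504 FPKM in Nr2f2 f/f and at 767, 577, 1289 and 502 FPKM in Nr2f2 d/d, with Nr2f2 d/d replicate 3 the highest as for Igfbp5. The 10 stromal markers had a summed level of 1691 to 1915 FPKM in Nr2f2 f/f and 2230 to 3851 FPKM in Nr2f2 d/d. By the 1.4-fold criterion 4 were higher (Dcn, Lum, Col1a1 and Col3a1) and 2 lower (Vim and Thy1). Of these, only Dcn had an adjusted p under 0.05 from limma. Pdgfra, Pdgfrb, Hoxa10 and Hoxa11 were also lower on average, and the median log2 fold change of the 10 was -0.08. The part of these markers in the value of Igfbp5 was not tested.

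Igfbp2, which lies tail to tail with Igfbp5 at 5.46 kb, on chromosome 1 at 72824503 to 72852474, plus strand, was too low to be tested. It was at 0.224, 0.218, 0.345 and 0.322 FPKM in Nr2f2 f/f and at 0.355, 0.466, 0.633 and 0.397 FPKM in Nr2f2 d/d. All 4 Nr2f2 d/d values lay above all controls, and the highest was again in replicate 3, from an estimated 108 fragments. The other libraries gave 25 to 66 fragments. The means were 0.277 ± 0.0657 and 0.463 ± 0.122 FPKM (exact permutation p = 0.0286), and a fit without the filter on low values gave a log2 fold change of 0.30 (limma p = 0.0169, adjusted p = 0.174). Because 0.5 was added before the log2, this fold is smaller than the ratio of the FPKM.

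Igfbp4 and Igfbp6 were abundant and were not shown to differ between the genotypes. Igfbp4, whose protein is cut by the protease PAPPA, lies on chromosome 11 at 99041244 to 99054392, plus strand. It was at 301, 160.5, 294 and 264 FPKM in Nr2f2 f/f and at 308, 283, 411 and 230 FPKM in Nr2f2 d/d. The groups overlapped, with the lowest value in Nr2f2 f/f replicate 2 and the highest in Nr2f2 d/d replicate 3. The log2 fold change was 0.28 (SE 0.243, 95% confidence interval -0.27 to 0.84, limma adjusted p = 0.537, exact permutation p = 0.4), and it was -0.074 without those 2 libraries.

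Igfbp6, whose protein prefers IGF2 to IGF1, lies on chromosome 15 at 102144362 to 102149511, plus strand. It was at 110, 120, 87.8 and 101 FPKM in Nr2f2 f/f and at 107, 116, 82.3 and 160 FPKM in Nr2f2 d/d. The groups overlapped, and only Nr2f2 d/d replicate 4 lay above all controls. The log2 fold change was 0.12 (SE 0.195, limma adjusted p = 0.767, exact permutation p = 0.6), and it was -0.047 without that library.

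**Figure D3:**
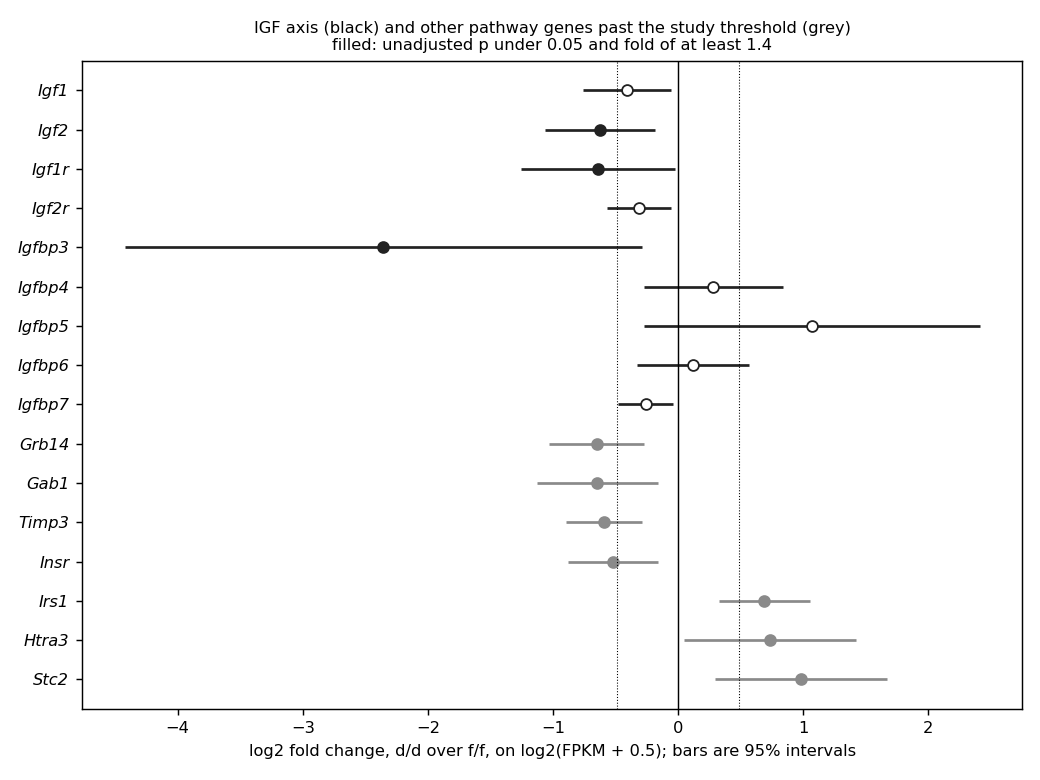
Log2 fold change of Nr2f2 d/d over Nr2f2 f/f, on log2(FPKM + 0.5), for the 9 members tested and the other pathway genes past the 1.4-fold criterion, with 95% confidence intervals from limma. Igf1, Igf2, Igf1r, Igf2r, Igfbp3 and Igfbp7 lie below 0, Igfbp4, Igfbp5 and Igfbp6 have intervals that span 0, and Igfbp3 has the widest interval, from -4.42 to -0.29.

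Summed over Igfbp2 to Igfbp7, the binding protein transcripts amounted to 1172, 1656, 989 and 915 FPKM in Nr2f2 f/f and 919, 859, 1153 and 901 FPKM in Nr2f2 d/d. The sums overlapped, with the highest in Nr2f2 f/f replicate 2. Without Igfbp3 the mean sum was 888 ± 107 FPKM in Nr2f2 f/f and 932 ± 132 FPKM in Nr2f2 d/d. The share of Igfbp3 in the sum was 15.6%, 55.1%, 4.32% and 4.85% in Nr2f2 f/f and 2.14%, 2.93%, 2.33% and 3.67% in Nr2f2 d/d, with no overlap. Igfbp7 made up 26.8% to 51.2% in Nr2f2 f/f and 34.7% to 49.1% in Nr2f2 d/d, which overlapped. Igfbp5 made up 1.125% to 5.81% in Nr2f2 f/f and 3.96% to 20.1% in Nr2f2 d/d, which also overlapped. These sums and shares are descriptions and were not tested.

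**Figure D4:**
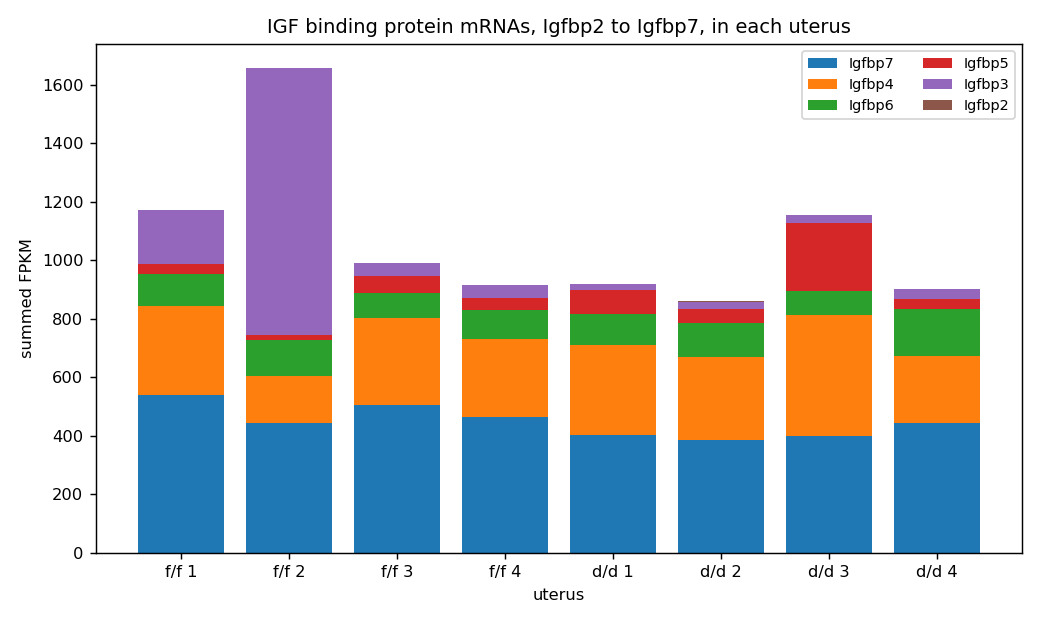
Summed FPKM of Igfbp2 to Igfbp7 in each of 4 Nr2f2 f/f and 4 Nr2f2 d/d uteri, stacked by gene. Igfbp3 takes 55.1% of the sum in Nr2f2 f/f replicate 2 and at most 3.67% in any Nr2f2 d/d uterus, and Igfbp5 is largest in Nr2f2 d/d replicate 3.

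A list of 65 other genes of the pathway was written from general knowledge, and 52 of them were tested. Of these, 3 were higher (Stc2, Htra3 and Irs1) and 4 lower (Insr, Timp3, Grb14 and Gab1) in Nr2f2 d/d by the 1.4-fold criterion, beside 4.7% and 4.1% of all genes. An adjusted p under 0.05 from limma was reached by 0 of the 52, and an unadjusted p under 0.05 by 14, beside 21.2% of all genes. The median log2 fold change of the 52 was -0.11. The insulin genes Ins1 and Ins2 were listed at 0 in all 8 libraries, and Igfals, the acid-labile subunit that joins IGFBP3 complexes in serum, was at 0.023 to 0.358 FPKM.

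Insr, the insulin receptor, which can form hybrids with IGF1R, was at 12.2, 16.2, 10.6 and 9.86 FPKM in Nr2f2 f/f and at 8.48, 6.97, 9.14 and 8.47 FPKM in Nr2f2 d/d. The groups did not overlap, and the highest library was Nr2f2 f/f replicate 2, as for Igf1r. The log2 fold change of Insr was -0.52 (SE 0.156, limma adjusted p = 0.116, exact permutation p = 0.0286). Leaving out Nr2f2 f/f replicate 2 gave -0.38 and leaving out Nr2f2 d/d replicate 2 gave -0.44, and the 1.4-fold criterion was missed in either case. With both Nr2f2 f/f replicates 1 and 2 left out it was -0.30. Insr exceeded Igf1r by 1.14 to 2.02 times in Nr2f2 f/f and 1.48 to 1.95 times in Nr2f2 d/d, with overlap.

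The genes just inside the cell differed in direction. Irs1, the docking substrate of IGF1R and the insulin receptor, was at 6.67, 8.49, 10.3 and 10.6 FPKM in Nr2f2 f/f and at 15.9, 16.5, 12.1 and 14.5 FPKM in Nr2f2 d/d. All 4 Nr2f2 d/d values lay above all controls, the opposite side from the receptor genes, with a log2 fold change of 0.69 (SE 0.158, limma adjusted p = 0.0603, exact permutation p = 0.0286). It was 0.47 when both Nr2f2 f/f replicates 1 and 2 were left out, just under the 1.4-fold criterion. Of the exon bases of Irs1, 30.9% are shared with Gm9747 on the opposite strand. Irs2, a related substrate, was at 1.02 ± 0.785 and 0.515 ± 0.120 FPKM and did not pass either criterion (log2 fold change -0.47, limma adjusted p = 0.404). Grb14, an adaptor that inhibits these receptors, was at 3.46, 5.40, 2.83 and 3.38 FPKM in Nr2f2 f/f and at 2.16, 2.19, 2.12 and 2.16 FPKM in Nr2f2 d/d. The Nr2f2 d/d values of Grb14 were nearly equal and below all controls (log2 fold change -0.65, limma adjusted p = 0.0760). Without Nr2f2 f/f replicate 2 the log2 fold change of Grb14 was -0.48, just under the 1.4-fold criterion, with a limma adjusted p of 0.0436. Gab1, a docking protein, was at 11.8 ± 3.37 and 7.25 ± 1.45 FPKM (log2 fold change -0.64, limma adjusted p = 0.139), and the criterion was missed without Nr2f2 f/f replicates 1 and 2 (-0.30). Of the 24 genes of the PI3K, AKT and mTOR steps, all tested, 0 passed the 1.4-fold criterion, with 11 at a higher and 13 at a lower mean and a median log2 fold change of -0.11.

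Among proteases of the binding proteins and their inhibitors, Stc2, whose protein blocks PAPPA, was at 5.37, 6.12, 6.10 and 3.73 FPKM in Nr2f2 f/f and at 12.98, 7.90, 18.7 and 7.18 FPKM in Nr2f2 d/d. The groups did not overlap and the highest was Nr2f2 d/d replicate 3, as for Igfbp5 (log2 fold change 0.99, limma adjusted p = 0.118). Pappa itself was at 1.01 ± 0.394 and 1.39 ± 0.834 FPKM, with overlap and no call. Htra3, a secreted serine protease, was at 18.8 ± 9.73 and 29.2 ± 4.35 FPKM (log2 fold change 0.73, limma adjusted p = 0.214), and the criterion was missed in 7 of 20 alternative settings. Timp3, an inhibitor of metalloproteases, was at 39.5, 52.4, 35.3 and 51.0 FPKM in Nr2f2 f/f and at 29.0, 30.7, 29.7 and 26.6 FPKM in Nr2f2 d/d. All 4 Nr2f2 d/d values of Timp3 lay below all controls (log2 fold change -0.59, SE 0.133, limma adjusted p = 0.0571). Of the exon bases of Timp3, 21.3% are shared with Syn3 on the opposite strand. Timp3 and Htra3 each had an adjusted p under 0.05 in 1 of the 8 fits that left out a library.

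The hormone receptors above the axis were measured in the same libraries. Esr1, the estrogen receptor, was at 33.5 ± 2.91 FPKM in Nr2f2 f/f and 41.8 ± 5.42 FPKM in Nr2f2 d/d, a log2 fold change of 0.31 (limma adjusted p = 0.151), while the mean of Igf1 was on the other side. Pgr was at 19.3 ± 6.30 and 26.4 ± 5.67 FPKM (log2 fold change 0.48, limma adjusted p = 0.318). Ghr, the growth hormone receptor, which drives hepatic Igf1, was at 5.32 ± 0.756 and 5.61 ± 0.240 FPKM (log2 fold change 0.079, limma adjusted p = 0.681). H19, the noncoding RNA gene that shares an imprinted domain with Igf2 at a distance of 72.6 kb, was at 9.16, 1.70, 2.31 and 5.64 FPKM in Nr2f2 f/f and at 1.49, 1.00, 3.01 and 1.22 FPKM in Nr2f2 d/d. H19 and Igf2 were both highest in Nr2f2 f/f replicate 1, but the groups of H19 overlapped (log2 fold change -1.09, limma adjusted p = 0.248).

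The other marker lists are given beside the members for reference. The summed level of 7 epithelial markers was 504 to 548 FPKM in Nr2f2 f/f and 663 to 768 FPKM in Nr2f2 d/d, with Krt8 and Krt19 higher by the 1.4-fold criterion, Krt8 also with an adjusted p under 0.05 from limma. The other 5 epithelial markers, Epcam, Cdh1, Krt18, Cldn4 and Esrp1, were at 96.4% to 124% of their control means. The sum of 4 mesothelial markers was 33.0 to 53.8 and 56.8 to 74.7 FPKM, with Msln and Upk3b higher by the criterion, Msln also with an adjusted p under 0.05 from limma. Neither sum overlapped between the groups. The sums of 8 smooth muscle markers, 1297 to 1825 and 1041 to 2561 FPKM, and of 7 macrophage markers, 104 to 204 and 142 to 216 FPKM, overlapped. The 5 leukocyte markers summed to 18.95 to 30.02 and 31.2 to 45.2 FPKM, without overlap, with Cd3e and S100a8 higher by the criterion. S100a8 was at 0.953 to 5.37 FPKM in Nr2f2 f/f and 7.76 to 17.1 FPKM in Nr2f2 d/d. The values of Ptprc, Cd79a and Ncr1 overlapped between the groups, and Ptprc was at 99.9% of its control mean. The ovarian list stayed at 6.60 to 8.95 FPKM and that of adipocytes at 0 to 6.32 FPKM, and the oviduct gene Ovgp1 was at 2.41 to 53.7 FPKM with overlap. Their parts in the values of the members were not tested.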

How the data were processed

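RNA of whole uterus at GD3.5 was measured in 4 Nr2f2 f/f and 4 Nr2f2 d/d mice, grouped by the labels, with replicate numbers from the titles. The deposited values are FPKM, rounded by the authors to 3 decimals. Per the labels and the study's methods, 76-bp paired-end reads of TruSeq libraries were trimmed with cutadapt 1.12, aligned to mm10 with STAR 2.5.2b and counted with featureCounts 1.5.0-p1, and the submitters' processing notes also list Cufflinks 2.0.2. The annotation, the strand setting and the FPKM formula are not given in the sources used here, so that overlapping genes are uncertain, and FPKM depend on each library's total.

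Of 24963 genes, 3893 were at 0 in all libraries. FPKM were taken to log2 after adding 0.5, which understates folds of low genes, and the 14323 genes averaging at least 0.5 FPKM were tested with limma 3.58.1 in R 4.3.3 (lmFit, eBayes with trend, two-sided) with Benjamini-Hochberg adjustment over all of them. Single genes were also compared by two-sided exact permutation of mean FPKM over all 70 arrangements of the libraries. The model was tested on simulated data. Depth was recovered from 1-exon genes, for which 97.2% to 98.9% of low values were whole fragments within 0.1 fragment. Fragment estimates use GENCODE vM21 exon lengths and cover counting error only. Intervals and p-values measure the spread between mice, 1 library each.

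The text names all members, genes of the pathway lists past the 1.4-fold criterion, and a few others fixed by name. The marker genes shown beside members were chosen after their values were seen. The members and lists were chosen with earlier results of these data known. Alternatives were other added values, filters and scalings, eBayes options, replicate blocks and libraries left out. The study's other data were not analysed here. Tables were made with Python 3.11.15.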

Additional observations from a re-analysis of the deposited data

Results flagged for a closer look

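Igfbp3 was at 912 FPKM in Nr2f2 f/f replicate 2, far from the other 3 controls, of which the nearest was at 183 FPKM. The gap was 0.838 of the range of the group, just above Dixon's 95% critical value for 4 samples. It was the only such value among the 20 groups examined (10 members in 2 genotypes), and chance gives about 1 in 20.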

How the results depend on the processing

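Over 20 alternatives, 150 of 180 log2 fold changes of the 9 members kept their direction and their side of the 1.4-fold criterion, 21 fell short of it, 6 newly met it and 3 changed sign. None had an adjusted p under 0.05 (lowest 0.0707, limma). The sign changes were Igfbp4 at -0.074, both with the replicate block by description number and without Nr2f2 f/f replicate 2 and d/d replicate 3, and Igfbp6 at -0.047 without Nr2f2 d/d replicate 4 (-0.047 to 0.27 over libraries left out). The 2 settings that reversed Igfbp4 give the same fold changes for all members. By description number, Nr2f2 f/f replicate 2 and d/d replicate 3 have no partner, so that block estimates from the other 6 libraries. Members meeting the criterion numbered 3, and 0 to 4 with 1 library left out: 0 without Nr2f2 f/f replicate 1, 1 without Nr2f2 d/d replicate 1 or 2, and 4 without Nr2f2 d/d replicate 4. Leaving out 1 library gave 42 to 348 genes in all at the adjusted threshold, against 375, and 1082 to 1442 at the 1.4-fold criterion, against 1260, and leaving out Nr2f2 f/f replicates 1 and 2, gave 24 at the adjusted threshold, while leaving out Nr2f2 f/f replicate 2 and d/d replicate 3 gave 444 (both chosen after seeing the data). Of genes at the adjusted threshold, 41.6% were higher in Nr2f2 d/d, and 50.8% with median-ratio scaling. The replicate block gave 1 adjusted gene by title number and 0 by description number, with 1 member at the criterion under the latter, and 3 and 2 members lower at an unadjusted p under 0.05. By title number Igf1r missed the criterion and Igfbp5 met it (1.07), and by description number Igf2, Igf1r and Igfbp3 (-1.46) missed it and Igf1 met it (-0.55). The numbers do not pair the libraries: deviations of same-numbered ones correlated at -0.20 to 0.05 by title and -0.20 to 0.15 by description, and 0 of 8 and 0 of 6 correlated best with their own number. With 4 mice a group, intervals of Igfbp4, Igfbp5 and Igfbp6 leave differences in either direction possible. The causes of these shifts were not tested.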
